A study of Mus musculus with 2 samples.

Results

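Of the 1358 mature miRNA entries counted in the retina of newborn mice, 74 (5.45%) were named miR-3000 or above but below miR-6000 and had at least 10 raw counts summed over both libraries. miRBase, the public catalogue of miRNAs, numbers its entries in order of submission, so these names are late ones. They were chosen by the number in the name and by the summed raw count, so their levels are given as a description with no test. The mice were wild-type CD-1 animals, an outbred strain, at postnatal day 0, and whole retina was used without treatment. They formed the only group, which has 2 libraries, replicate 1 and replicate 2. Whether these came from separate animals is not in the labels, and the spread between them could be technical. All p-values below come from tests on counts in or between these 2 libraries and cover counting error only. The libraries held 8337902 and 8118208 counts, and levels are counts scaled to these totals, in CPM. The 6 miRNAs listed as retinal markers summed to 402000 CPM (replicate 1) and 422762 CPM (replicate 2), against 860 and 990 CPM for markers of lens, cornea and surface epithelium (mainly miR-184-3p, with miR-205-5p at 0), 88.7 and 92.0 CPM for muscle, 1.92 and 2.09 CPM for leukocytes (miR-223-3p and miR-150-5p at 0) and 0.720 and 0.493 CPM for red blood cells. The part of these cells in the levels below was not tested.

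The late-numbered entries were 58 with numbers in the 3000s and 16 in the 5000s, and none had a number in the 4000s. Another 68 entries of the number range had counts but fewer than 10, and 31 had none. Just inside the limit lay miR-5134-3p with 10 counts (6 and 4) and miR-3110-5p with 11 (5 and 6). Just outside lay miR-5101 with 9 counts (5 and 4), miR-5106 with 8 (5 and 3), and miR-3083-5p and miR-3102-3p.2-3p with 7 each.

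A miRNA is made in steps that leave marks on its reads. Drosha cuts a folded primary transcript into a hairpin, Dicer cuts the loop away, and the resulting duplex has short 3′ overhangs at both ends. One strand is then kept in an Argonaute protein, while the strand from the other arm of the hairpin is usually rarer. Because both cuts are precise, reads tend to share a 5′ end, which sets the seed (bases 2 to 8) that pairs with target mRNAs. Mirtrons differ in that splicing, not Drosha, frees an end of the hairpin. Many late entries were submitted from deep sequencing, where fragments of tRNA, snoRNA or repeats can also fall in the size range of miRNAs. The yield of adapter ligation depends on the RNA sequence, and levels of different entries in a library include it.

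Sequences from RefSeq (GRCm38.p6) show the entries on which the results below turn. The first set holds mature sequences, with the seed in capitals, of the entry with the highest level and of hairpins whose arm use is described below. Their hairpins lie at chr7:6803587-6803670 on the plus strand (Mir3099, in an intron of Usp29, a ubiquitin protease gene), chr16:44558046-44558129 on the minus strand (Mir3081, in an intron of Boc, a Hedgehog co-receptor gene), chr10:81271597-81271687 on the plus strand (Mir3057, in an exon of Apba3), chr12:87437679-87437757 on the minus strand (Mir3068, in an intron of Alkbh1), chr19:42280082-42280170 on the minus strand (Mir3085) and chr11:106782693-106782759 on the minus strand (Mir3064, in an exon of Ddx5, an RNA helicase gene). An exon here is one of any annotated transcript, and the Apba3 transcript listed for the miR-3057 reads is annotated as retaining an intron. miR-3085-3p and miR-3064-5p are set together because they share a seed. The most frequent miR-3064-5p read had 19 bases in both libraries, under the 20 to 24 scored below. The hairpins of miR-3064 and miR-3057 were not among those with overhangs of 1 to 3 bases at both ends in every library measured. For miR-3064 this rests on 1 count of the 3p arm in replicate 2. miR-3057 missed the range in replicate 1 only, and the overhangs of miR-3085 were not measured.
miR-3099-3p: uAGGCUAGagagagguugggga
miR-3081-3p: uUGCGCUCcgaucucugagcugg
miR-3057-5p: aUUGGAGCugagauucugcgggau
miR-3068-5p: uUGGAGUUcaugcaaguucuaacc
miR-3085-3p: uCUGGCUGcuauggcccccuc
miR-3064-5p: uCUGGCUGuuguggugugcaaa

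The next set holds the most frequent read of entries whose read departed from their own hairpin, written as DNA, with the bases that differ from the hairpin in capitals. The hairpins lie at chr11:115447961-115448060 on the minus strand (Mir3968), chr3:151023792-151023862 on the minus strand (Mir3963), chr11:60728663-60728726 on the plus strand (Mir5100, in an intron of Mief2) and chr19:33157112-33157201 on the plus strand (Mir3970). The same read was the most frequent in both libraries for each of them. For comparison, the read of let-7i-5p, a miRNA of the developmental timing family, is shown with the base that differs from the miR-3970 read in capitals.
miR-3968: atcccactccTgacacca
miR-3963: TCgtatcccacttctgacacCA
miR-5100: tcgaatcccagcggtgcctcCA
miR-3970: tgaggttgtagtttgtgctGtT
let-7i-5p: tgaggtAgtagtttgtgctgtt

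The last set holds reads with an exact match in another kind of RNA or at the end of an intron. The miR-3535 read lies in Gm24148, a snoRNA gene within Ncl (nucleolin) at chr1:86351981-86352127 on the minus strand. The read shared by miR-3473b (hairpin at chr10:41670739-41670793 on the plus strand) and miR-3473e (chr5:31667231-31667340 on the minus strand, in an intron of Rbks) occurs in many transcripts. The miR-3097-3p read (hairpin at chr5:35021049-35021115 on the plus strand, in an intron of Rgs12) ends at an intron end but for a final T, in capitals, that lies beyond the hairpin record.
miR-3535: tggatatgatgactgattacctgaga
miR-3473b and miR-3473e: gggctggagagatggctc
miR-3097-3p: ctcagacctttctacctgtcagT

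Together the late-numbered entries held 0.0911% of the counts of replicate 1 and 0.0881% of those of replicate 2, or 0.0896% ± 0.00209 (SD, n = 2). That was 7592 and 7153 counts. They made up 10.4% of the 710 entries with at least 10 counts, so their share of entries was far above their share of counts. Their median level was 2.64 CPM, against 11.1 CPM over all 710. Only 2 reached 100 CPM, 15 lay between 10 and 100 CPM, and 16 lay below 1 CPM. The limit that a count of 0 allows (3 counts) was 0.36 CPM for replicate 1 and 0.37 CPM for replicate 2, and 10 counts carry a counting error of 31.6%. These limits and the exact binomial 95% intervals below cover counting error only.

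miR-3099-3p had the highest level of the late-numbered entries and was well apart from the rest. It was at 227 CPM in replicate 1 (interval 217 to 237) and 218 CPM in replicate 2 (208 to 229), which is rank 133 of all entries and 24.9% of the counts of the late-numbered entries. The intervals of the libraries overlapped. miR-3968 followed at 91.3 CPM (84.9 to 98.0) and 111 CPM (103.9 to 118.5), intervals that did not overlap. miR-3963 was at 68.0 and 54.4 CPM, miR-5100 at 68.6 and 50.5 CPM and miR-3970 at 46.2 and 48.2 CPM. The order of miR-3963 and miR-5100 changed between the libraries, so it is not resolved. These 5 entries held 54.9% ± 0.189 of the counts of the 74.

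The next levels fell off gradually, and many neighbours in the order overlapped. miR-3081-3p was at 37.5 and 44.7 CPM, miR-3535 at 34.8 and 43.6 CPM and miR-3074-5p, which is read from the strand opposite the mir-24 hairpins, at 33.8 and 29.4 CPM. miR-3085-3p was at 23.4 and 26.1 CPM, miR-5099 at 22.1 and 24.3 CPM and miR-3474 at 23.7 and 19.6 CPM. Among these last 3 entries the ranges over the libraries overlapped, so they have no resolved order. miR-3057-5p was at 20.7 and 20.8 CPM, miR-3068-5p at 15.2 and 13.7 CPM and miR-3078-3p at 15.6 and 12.7 CPM. miR-3473b was at 15.4 and 12.2 CPM, miR-3078-5p at 12.4 and 9.85 CPM and miR-3064-5p at 11.2 and 9.12 CPM. The last of the 20 highest were miR-5128 at 8.04 and 9.12 CPM, miR-3066-5p at 6.36 and 9.85 CPM and miR-3473e at 9.27 and 6.07 CPM, whose ranges also overlapped. The other 54 entries held from 10 to 99 counts each.

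**Figure D1:**
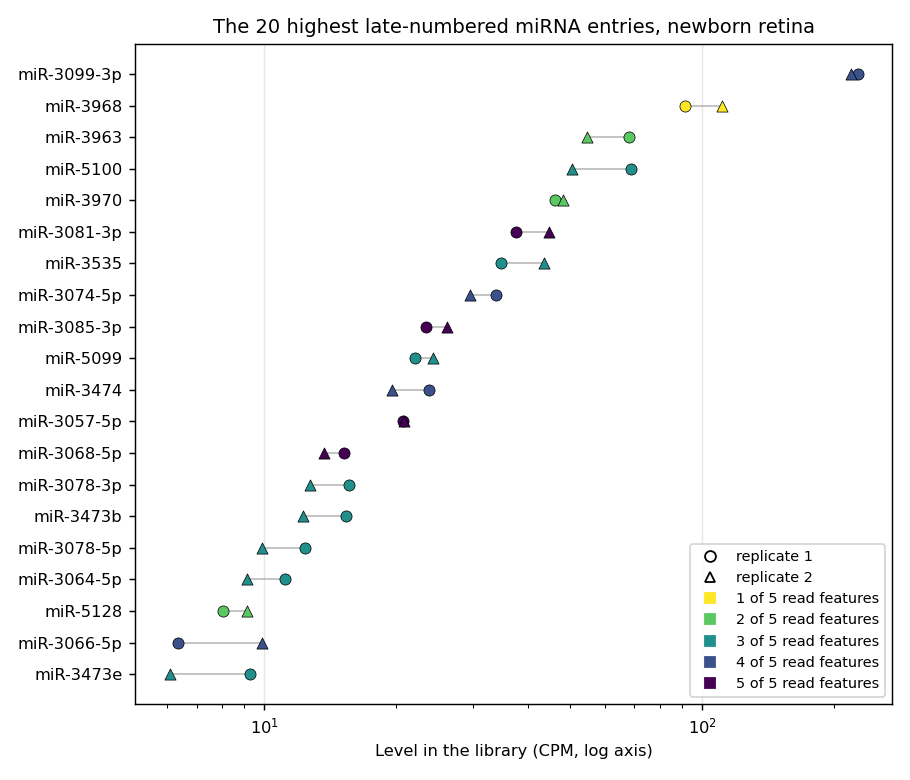
Levels of the 20 highest late-numbered entries in CPM (log axis), with a circle for replicate 1 and a triangle for replicate 2, coloured by how many of 5 features of the most frequent read were present. miR-3099-3p stands apart at 218 to 227 CPM, and miR-3968, miR-3963 and miR-3970 combine high levels with at most 2 features.

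A set of 5 features, of the kind that Drosha and Dicer cutting leaves, was scored for each entry from the counts and the most frequent read. They were the same 5′ start in both libraries, a start at the miRBase base in both, no internal mismatch to miRBase in either, a length of 20 to 24 bases in both, and at least 1 count of the other arm in both. A start at the miRBase base in both always brings the same start with it, so the features are not separate marks. A start that differed between the libraries cost 2 features, and a shift shared by both cost 1. All 5 were present in 22 of the 74 late-numbered entries (29.7%) and in 325 of the 636 other entries (51.1%). Among those others, names of 6000 and above had all 5 in 20 of 93 (21.5%). A further 21 late-numbered entries had 4 features, 21 had 3, 8 had 2 and 2 had 1. The other arm was the feature most often lacking, with counts in both libraries for 31 entries (41.9%, against 62.7% of the others). For 26 entries no other arm was listed under the same name, so for them this feature could not be scored as present. Among these were miR-3074-5p, although miR-3074-1-3p had 51 and 34 counts, and miR-3102-5p.2-5p, although miR-3102-3p.2-3p had 3 and 4. Both were scored with 4 features and lacked only this one.

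The lower share of complete entries was found where counts were high, not where they were low. Among entries with 10 to 99 counts, all 5 features were present in 18 of 54 late-numbered entries (33.3%) and in 83 of 253 others (32.8%). Among entries with 100 counts or more, they were present in 4 of 20 late-numbered entries (20%) and in 242 of 383 others (63.2%). These 20 entries held 87.3% ± 0.698 of the counts of the 74. At that depth the start lay at the miRBase base in 12 of 20 (60.0%, against 89.3% of the others), and the other arm was counted in 7 of 20 (35%, against 71.3%). Length was within 20 to 24 bases in 15 of 20, against 97.1% of the others, and the read was free of mismatches in 16 of 20, against 95.8%. For most of these 20 entries, among them the 5 highest, no other arm was listed under the same name, so all 5 features could not be present. How often this held among the others was not counted, so the part it has in the difference is not known. The difference between the groups was not tested, and the other entries with 100 counts or more reach far higher levels.

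**Figure D2:**
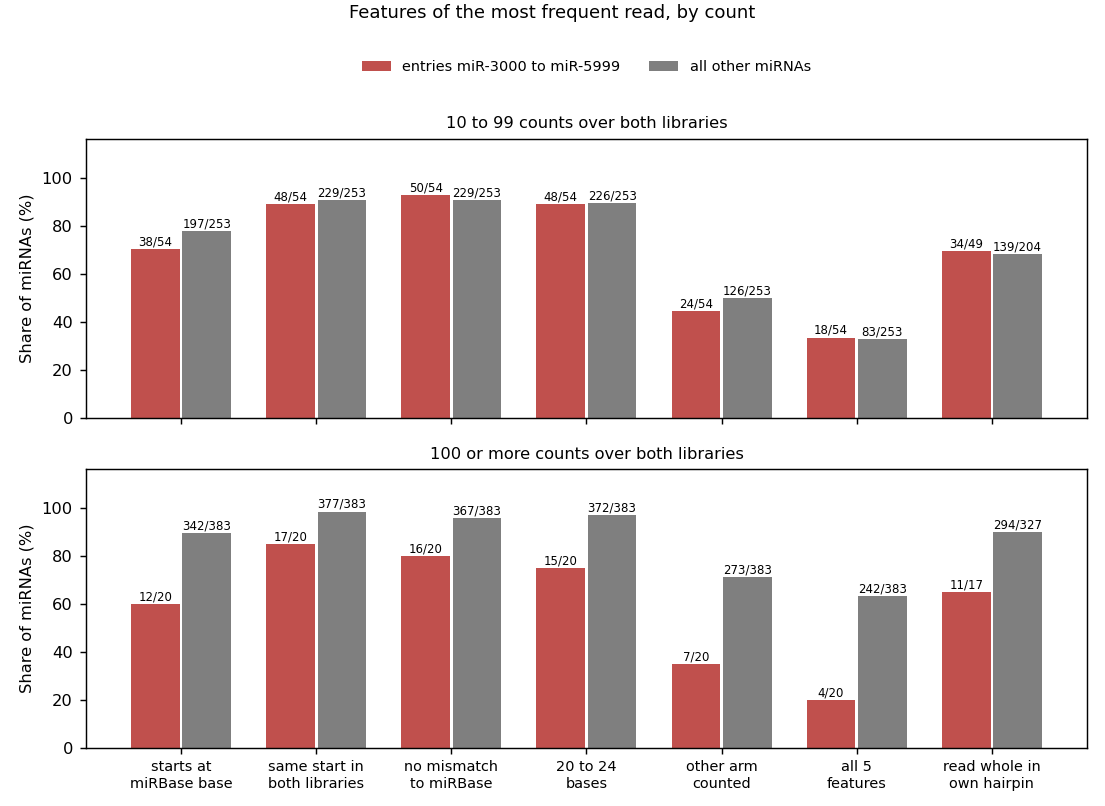
Share of entries (%) with each feature of the most frequent read, for late-numbered entries (red) and all other entries (grey), with the numbers above the bars, for entries of 10 to 99 counts (upper panel) and of 100 or more counts (lower panel). The bars are close in the upper panel for all 5 features (33.3% and 32.8%) and apart in the lower one (20% and 63.2%). Grey bars pool all other names, of which those under 1000 (40.0%) and those of 6000 and above (20.7%) differed in the upper panel. Entries with no other arm listed under the same name could not have all 5.

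The 22 entries with all 5 features were mostly low. They held 15.3% ± 0.481 of the counts of the late-numbered entries, with a median of 1.64 CPM, and the 5 highest were miR-3081-3p, miR-3085-3p, miR-3057-5p, miR-3068-5p and miR-5129-3p (5.76 and 4.93 CPM, from an exon-intron boundary of Zeb2, a transcription repressor gene). In 18 of the 22 the read lay whole in its own RefSeq hairpin. The 10 entries with at most 2 features held more, 25.9% ± 1.35, with a median of 4.08 CPM. Those with a single feature were miR-3968 and miR-5620-5p (1.68 and 1.35 CPM). miR-3099-3p had 4 features, with a 22-base read at the miRBase start in both libraries, and lacked only the other arm, for which there was no entry in the table.

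miR-3081 had the most counts of the hairpins compared and was read almost wholly from its 3p arm, which had 313 and 363 counts. Its 5p arm had 1 and 2, a log2 ratio of 5p over 3p of -7.45 ± 0.37 (SD, n = 2, with 0.5 added to each count). Folded with RNAfold, the reads of both arms formed a duplex with 3′ overhangs of 2 bases at both ends in both libraries. miR-3085 was also read mostly from the 3p arm, with 195 and 212 counts against 6 and 6 (log2 ratio -4.97 ± 0.085). miR-3057 leaned to the 5p arm, with 173 and 169 counts against 6 and 6 (4.72 ± 0.024). For all 3 hairpins the same arm led by far more than 4-fold in both libraries.

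In each library the counts of the arms were set against equality with a two-sided exact binomial test. It covered the 312 hairpins for which both arms were listed under the same name and summed to 10 counts or more in each library. The arms of miR-3074, which are named differently, were therefore not compared. Of the 27 such hairpins with a late-numbered entry, 21 had a difference of the same sign with an adjusted p under 0.05 in both libraries, where 89.7% of all 312 did. By a ratio of 4-fold or more in both libraries, which 77.2% of all 312 reached, 8 of the 27 leaned to the 5p arm (40.4% of all 312) and 10 to the 3p arm (36.9%). Because each entry needed 10 counts to be included, a hairpin with only 1 included arm had that arm high by choice. Arm asymmetry of these hairpins is thus partly set by how they were chosen.

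The other hairpins that leaned to the 5p arm had few counts of the 3p arm. miR-3064 had 93 and 74 counts of 5p against 0 and 1 of 3p, miR-3068 had 127 and 111 against 22 and 26, and miR-3066 had 53 and 80 against 7 and 6. miR-3059 had 33 and 38 against 2 and 0, miR-3620 had 34 and 11 against 0 and 1, miR-5615 had 25 and 21 against 1 and 0, and miR-5620 had 14 and 11 against 0 and 0. miR-3068 was the closest to the 4-fold limit of these. Where an arm was at 0, the order of the ratios among hairpins is not resolved. On the 3p side, miR-3475 had 44 and 34 counts against 0 and 0, miR-3098 had 45 and 40 against 0 and 2, and miR-3082 had 24 and 36 against 0 and 3. Lower counts of the 3p arm were found for miR-5621 (25 and 21 against 1 and 4), miR-3077 (17 and 10 against 1 and 1), miR-3105 (11 and 17 against 0 and 1), miR-3076 (10 and 14 against 0 and 1) and miR-3102 (10 and 11 against 0 and 0).

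In 9 hairpins neither arm led by 4-fold in both libraries once 0.5 was added to each count. miR-3078 was the one with the most counts and the most even at that depth, with 103 and 80 counts of 5p against 130 and 103 of 3p (log2 ratio -0.35 ± 0.020). Its difference did not pass the exact binomial test (adjusted p = 0.0943 in replicate 1 and 0.111 in replicate 2). miR-3058 (8 and 8 against 8 and 7), miR-3094 (7 and 10 against 8 and 6) and miR-3072 (13 and 7 against 6 and 6, from Mirg, a noncoding RNA of the imprinted Dlk1-Dio3 region) were even within the little depth they had. miR-3095 differed between the libraries, with 4 and 16 counts of 5p against 48 and 30 of 3p, and its difference did not pass in replicate 2 (adjusted p = 0.0588, exact binomial). miR-3103 had 3 and 2 counts of 5p against 12 and 9 of 3p and was not called either. It falls under the limit only through the added 0.5. miR-3097 (17 and 10 against 36 and 35), miR-3061 (11 and 2 against 28 and 14) and miR-5129 (8 and 14 against 48 and 40) had a called difference towards the 3p arm but missed the 4-fold limit in at least 1 library.

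**Figure D3:**
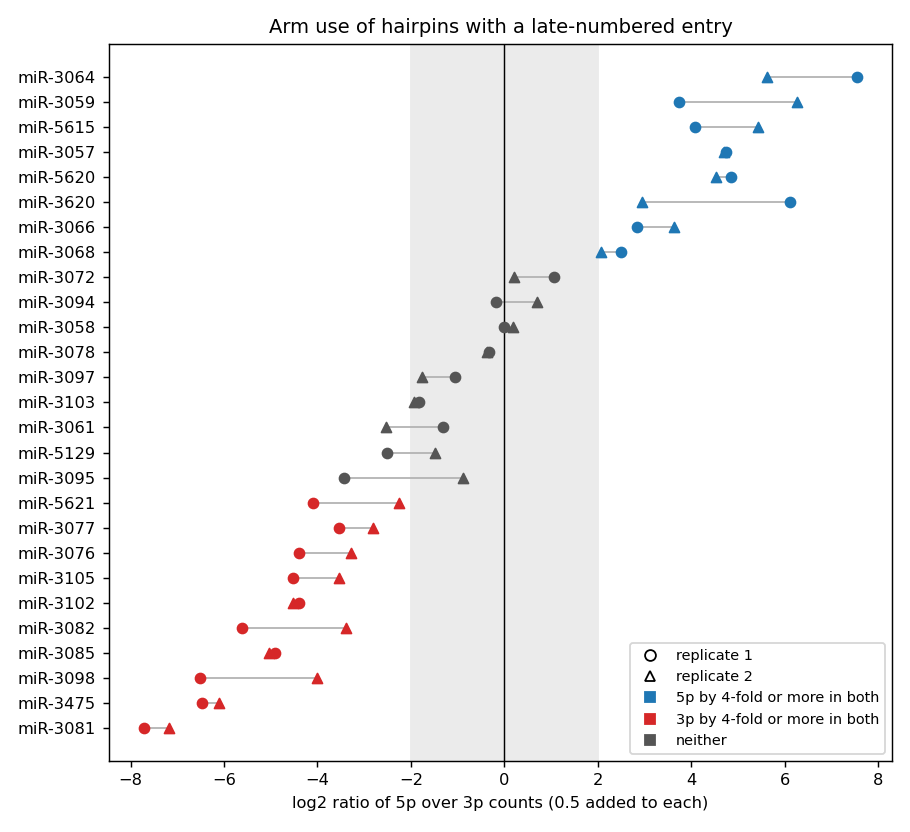
Log2 ratio of 5p over 3p counts (0.5 added to each) for the 27 hairpins compared, with a circle for replicate 1 and a triangle for replicate 2, and the range under 4-fold shaded. Blue marks the 8 hairpins that leaned to 5p and red the 10 that leaned to 3p by 4-fold or more in both libraries, and points far apart, as for miR-3095 and miR-3620, belong to arms with few counts.

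The reads of both arms could be placed in a predicted fold for 14 hairpins of late-numbered entries, each in the 1 or 2 libraries in which both arms were counted and summed to 10 counts or more. Overhangs of 1 to 3 bases at both ends, in every library measured, were found for 7 of them (50%) and for 111 of 169 other hairpins (65.7%). The 7 were miR-3061, miR-3068, miR-3072, miR-3081, miR-3087, miR-3095 and miR-3098. miR-3066, whose 5p read started a base before the miRBase entry, had an overhang of 0 at the base of the hairpin in both libraries. The median predicted folding energy of the hairpins themselves was -43.7 kcal/mol per 100 bases over 55 hairpins of late-numbered entries and -42.4 over 386 others, with -43.4 for the 16 hairpins of entries with all 5 features and -37.9 for the 8 of entries with at most 2.

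A start shifted from the miRBase base in both libraries moves the seed. The start was earlier in both libraries in 10 entries and later in 7, and in 9 it differed between the libraries, with 2 of these (miR-3470b and miR-5620-5p) also among the shifted. The 5 highest of the shifted entries were miR-3968 (3 bases later), miR-3963 (1 earlier), miR-3970 (1 earlier), miR-5099 (2 earlier) and miR-3066-5p (1 earlier). Among entries with 10 to 99 counts, 38 of 54 started at the miRBase base in both libraries (70.4%, against 77.9% of the others). The most frequent read was the same in both libraries for 48 of 74 (64.9%, against 80.8%). The highest entries with a read that differed were miR-3078-3p, miR-3078-5p and miR-5128, in which the start moved, and miR-3098-3p (5.40 and 4.93 CPM) and miR-3074-1-3p (6.12 and 4.19 CPM), in which the 3′ end moved.

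The most frequent read could be compared with a RefSeq hairpin record of its own entry for 66 entries, where for miR-3535 that record was the snoRNA gene Gm24148. It lay whole in the hairpin in both libraries for 45 (68.2%, against 81.5% of 531 others). The 21 that differed held 39.5% ± 0.384 of the counts of the late-numbered entries. Among entries with 10 to 99 counts the share was close to the pooled share of the others (34 of 49, 69.4%, against 68.1%). That pooled share combines unlike parts. It was 88 of 110 (80.0%) for names under 1000, let-7 included, and 35 of 71 (49.3%) for names of 6000 and above. The late-numbered share lay between these. At 100 counts or more 11 of 17 lay in their hairpin (64.7%, against 89.9%). For names of 6000 and above, a part of the others, it was 3 of 8 (37.5%) at 100 counts or more. Substitutions are written with the hairpin base first, then the position from the 5′ end of the read, then the read base.

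miR-3968, miR-3963 and miR-5100 differed from their hairpins and their reads ended in CCA. They held 24.8% ± 0.366 of the counts of the late-numbered entries. Against its hairpin the miR-3968 read carried A11T, the miR-3963 read A1T, T2C, T21C and G22A, and the miR-5100 read T21C and T22A. For miR-3963 and miR-5100 the changes at positions 21 and 22 make the CCA end, whereas in miR-3968 the hairpin itself holds CCA there. The last 18 bases of the miR-3963 read differed from the miR-3968 read by C9T alone (miR-3968 base first, position in its 18-base read). A CCA end in both libraries was found for 3 of 74 late-numbered entries (4.05%) and 3 of 636 others (0.472%). CCA is the end that cells add to mature tRNAs. None of the 3 reads matched the 22 mitochondrial tRNA sequences with CCA added, and nuclear tRNAs were not searched.

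The level of miR-3970 stood beside that of a far more abundant miRNA with nearly the same read. Its 22-base read differed from the let-7i-5p read by A7T alone (let-7i-5p base first), and from its own hairpin by T20G and C22T. Its counts came to 0.0480% of those of let-7i-5p in replicate 1 and 0.0471% in replicate 2, so the share was nearly the same in both libraries. Whether the counts of let-7i-5p have a part in those of miR-3970 was not tested. Through its earlier start the read shared its seed with miR-672-5p (467 CPM) and miR-377-5p (2.01 CPM).

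Single changes were found in other reads. The miR-5099 read differed from its hairpin by G1T alone. The miR-5129-5p read (0.959 and 1.72 CPM) had T12C, and the miR-5126 read (3.12 and 2.46 CPM), which began 3 bases early, had A1C and C2G. miR-3473a (5.34 and 5.17 CPM) had a 29-base read with A18C that ran 9 bases past the end of its hairpin. That read matched Gm42826, an unclassified transcript, exactly, and the hairpin of Mir690 with 1 mismatch.

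A final T that the hairpin record does not hold was found in both libraries for 8 of 66 entries (12.1%, against 9.42% of 531 others). The share of the others combines unlike parts. It was 22 of 408 (5.39%) for names under 1000, let-7 included, and 25 of 79 (31.6%) for names of 6000 and above. The late-numbered share lay between these. Cells add single U bases to the 3′ ends of miRNAs and their precursors. miR-3085-3p carried it as C22T, miR-3082-3p (2.88 and 4.43 CPM) and miR-3473g (1.56 and 1.48 CPM) as G22T, miR-3091-3p (0.60 and 0.862 CPM) as C23T and miR-3970 as C22T. The miR-3970 read also departs from its hairpin by T20G. The let-7i-5p read, which differs from it by A7T alone, ends in the same T. Whether the final T of miR-3970 was added to an RNA of its own hairpin was not tested. In miR-3475-3p, miR-3097-3p and miR-3094-3p the final T lay beyond the end of the hairpin record, so whether the genome holds a T there was not determined.

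Reads with an exact match in a transcript annotated as a snoRNA, a class that guides the modification of ribosomal RNA, were found for 5 of 74 late-numbered entries and 5 of 636 others. For miR-3068-5p and miR-3068-3p that transcript was Mir3068 itself. Leaving out transcripts named after the miRNA, 3 of 74 and 4 of 636 remained. The 3 were miR-3535, with a 26-base read in Gm24148, miR-5121 (5.52 and 2.71 CPM) in Snord33, which lies in the ribosomal protein gene Rpl13a (hairpin at chr7:45126918-45126991 on the minus strand), and miR-3084-5p (0.840 and 0.616 CPM) in Snora19 and Gm23658. The RefSeq hairpin record used for miR-3535 was Gm24148 itself, so that its reads lay whole in it is the same fact as this match. The reads of miR-3535 started at the miRBase base and lacked mismatches, so these features alone do not separate it from miR-3081-3p. It missed the length range, and the table listed no other arm.

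Reads found in at least 10 transcribed genes belonged to 3 late-numbered entries and 2 of 636 others. miR-3470b (3.24 and 2.59 CPM) had reads that matched transcripts of 577 genes in replicate 1 and 551 in replicate 2. miR-3473b and miR-3473e shared an 18-base read that matched 402 genes. With miR-3473a these were the only late-numbered entries with fractional counts, so how their reads were shared out bears on their levels. All other late-numbered reads matched at most 2 genes.

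Reads that ended at an intron end were found among entries with low counts. In 9 of 66 entries (13.6%) the part of the read held by the hairpin ended within 2 bases of the next exon in both libraries, as it did in 39 of 531 others (7.34%). All 9 were 3p arms with 10 to 99 counts, where 9 of 49 late-numbered entries (18.4%) and 33 of 204 others (16.2%) had such an end. Most of those others were names of 6000 and above, with 29 of 71 (40.8%). Names under 1000, let-7 included, had 3 of 110 (2.73%). The late-numbered share lay between these. Together the 9 entries held 1.81% ± 0.0761 of the counts of the 74. The highest was miR-3097-3p in Rgs12, a regulator of G protein signalling, at 4.32 and 4.31 CPM. miR-3082-3p lay in Stub1 (a ubiquitin ligase gene), miR-3077-3p (2.04 and 1.23 CPM) in Sap18, miR-3076-3p (1.20 and 1.72 CPM) in Tkt (transketolase) and miR-3103-3p (1.44 and 1.11 CPM) in BC017158. The others were miR-3104-3p in Brsk2, miR-3087-3p in Abca2, miR-3094-3p in Nfx1 and miR-5134-3p in Ccnf. Of the 9, 4 had all 5 features, so an intron end and a regular read form occurred together.

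Seeds of the most frequent reads (bases 2 to 8) were shared in few cases. miR-3085-3p (24.8 ± 1.93 CPM) and miR-3064-5p (10.1 ± 1.44 CPM) both had CTGGCTG from different chromosomes. miR-5129-3p shared ATGTGCC with miR-455-5p (21.4 CPM), and miR-3473a shared GGAGAGA with miR-185-5p (295 CPM). miR-5121 and miR-5616-3p shared CTTGTGA through starts that were both 1 base late, and miR-3620-5p shared TGTGGGC with miR-134-3p (0.843 CPM).

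A two-sided exact binomial test of each entry with 10 counts or more set replicate 2 against replicate 1, and so compares libraries and not conditions. Of 74 late-numbered entries, 7 differed at an adjusted p under 0.05, against 27.9% of the 710 tested. The share called depends on depth: 3 of 54 late-numbered entries with 10 to 99 counts were called (2.28% of all such entries), 2 of 17 with 100 to under 1000 (21.6%) and 2 of 3 with 1000 or more (71.3%). The late-numbered share was thus above that of all entries at 10 to 99 counts, where only 7 of 307 were called. It was below that of all entries at 100 to under 1000 counts. The called entries are too few to tell more.

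Lower in replicate 2 were 4 entries (19.6% of all tested were lower). miR-3620-5p had 34 and 11 counts (log2 ratio -1.55, adjusted p = 0.00402, exact binomial) and miR-5121 had 46 and 22 (-1.01, adjusted p = 0.0212, exact binomial). miR-5100 (log2 ratio -0.44) and miR-3963 (-0.32) were lower by less, at adjusted p = 1.41e-05 and 0.00228 (exact binomial). Higher in replicate 2 were 3 entries (8.31% of all tested). miR-3095-5p had 4 and 16 counts (log2 ratio 1.91, adjusted p = 0.0258, exact binomial), miR-3535 differed by 0.33 (adjusted p = 0.0190) and miR-3968 by 0.28 (adjusted p = 3.80e-04). miR-3968 and miR-3963, whose read ends differ by 1 base, thus differed in opposite directions, and their count ratio was 1.34 in replicate 1 and 2.04 in replicate 2. Scaled by TMM, a method that centres the bulk of entries, miR-5121 (adjusted p = 0.0551, exact binomial) and miR-3963 (0.0937) were no longer called, and miR-3066-5p (0.0139) and miR-3081-3p (0.00453) were called as higher, which gives 2 lower and 5 higher. DESeq2 size factors gave the same calls. The shares of all entries called with these scalings are not given here. The median log2 ratio was -0.14 over the late-numbered entries and -0.12 over all tested, and TMM moved the latter to -0.0037.

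**Figure D4:**
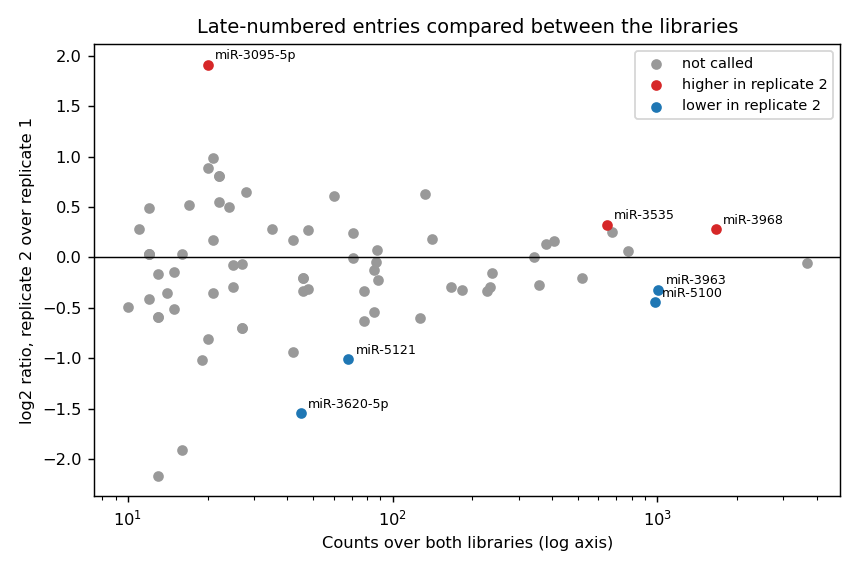
Log2 ratio of replicate 2 over replicate 1 against the counts over both libraries (log axis) for the 74 late-numbered entries, with the 3 entries called higher in replicate 2 in red and the 4 called lower in blue. The spread narrows as counts grow, and miR-3968, miR-3963 and miR-5100 were called at ratios much smaller than those of many uncalled entries with few counts.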

How the data were processed

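Small RNA of 18 to 30 nt was gel-purified from total retina RNA and made into libraries from 1 µg of total RNA, with cDNA of 60 to 80 nt taken from a gel, per the labels' protocols. Per the submitters' processing notes, bcl2fastq 2.17.1.14 made the read files. Aligner, counter and build were not given in the sources used here. The deposited table of estimated counts holds 1 unscaled value per mature miRNA and library, some of them fractional, and these were rounded for tests. The deposited CPM table is scaled to a total chosen by the authors and served only as an alternative. The deposited text table gives the most frequent read, with marks against miRBase 21, per the file headers, with the mark for missing 5′ bases read from the values.

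CPM was computed from the totals of the count table. Exact binomial tests were adjusted by Benjamini-Hochberg over all 710 entries or all 312 hairpins, with calls at 0.05, and were tested on simulated data. Hairpins, mature sequences and loci came from RefSeq tables of GRCm38.p6, in which 66 of the 74 entries had a hairpin and 67 a mature sequence. No genome was used, so the planned genome matches were replaced by exact sense matches in 141767 GENCODE M21 transcripts. That search, the comparison with hairpins, intron ends, CCA and T ends, overhangs (RNAfold 2.7.2) and the class of 100 counts or more were chosen after the data were seen, as were the entries singled out for them. The entries and lists were chosen with earlier results of these data known. The rule for other named entries took the 20 highest, all hairpins with arms compared, the 5 highest of each read form, the 5 with the most matches, the called entries and those nearest the count minimum. TMM and DESeq2 size factors were computed with edgeR 4.0.16 and DESeq2 1.42.0 in R 4.3.3, other values with Python 3.11.15, SciPy 1.17.1 and statsmodels 0.14.6.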

Additional observations from a re-analysis of the deposited data

How the results depend on the processing

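No paired analysis was possible because the series has a single group. A minimum of 50 counts left 31 entries. Over entries with whole counts in both libraries the share of counts was 0.125%, since the total is smaller, and by the deposited CPM the median level was 2.33 CPM, since the authors' total is larger. With TMM, and likewise with DESeq2 size factors, 2 entries were lower and 5 higher in replicate 2. At 20 or more counts over both arms, 16 hairpins were compared and 6 leaned to 3p, and a 10-fold limit left 5 that leaned to 5p. With at least 50 counts 20 of 31 entries started at the miRBase base and 24 had the same read in both libraries, and with at least 100 counts these were 12 and 17 of 20. From 1 library alone, with 5 counts as the minimum for entries, the values were 71 to 76 entries, a share of 0.0881% to 0.0911%, a median of 2.40 to 2.76 CPM, 29 hairpins compared, 8 to 9 leaning to 5p, 13 leaning to 3p, 23 to 25 called, 53 to 54 entries at the miRBase start and 27 to 29 with all 5 features. The library comparison needs both libraries and was not run without either. The shares over all entries or hairpins at the settings of this section are not given here, so its counts of called or leaning ones stand without a background. With bases beyond the hairpin not counted, 15 reads differed from it, and 16 did so in both libraries, alternatives added after seeing the data. Few counts limit what the most frequent read of an entry near the minimum shows.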
